A study of Mus musculus with 25 samples.

Results

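The glutathione S-transferases (GSTs) described here are 10 cytosolic genes of the mouse: Gsta1, Gsta2, Gsta3 and Gsta4 of the alpha class, Gstm1, Gstm2, Gstm3, Gstm4 and Gstm6 of the mu class, and Gstp1 of the pi class. They were chosen by symbol, and all 10 were found among the 18668 genes of the hepatocyte count table and the 51912 genes of the immune cell count table. RNA was sequenced from hepatocytes (5 groups, 13 libraries) and immune cells (6 groups, 12 libraries) sorted from perfused livers of mice whose strain is labelled C57BL/6J 129SV. The series title places the study in the question of how macrophage IL-6, acting through gp130 and STAT3, reprograms hepatocytes after injury. DDC is a porphyrin-forming toxin given in the diet to model cholestatic injury, and HTVi is a hydrodynamic tail vein injection that carries plasmid DNA into hepatocytes.

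The GFP plasmid group (n = 2) and the IL-6 plasmid group (n = 3) were wild-type mice 1 week after HTVi of the respective plasmid. The IL-6 STAT3KO group (n = 3) carried floxed Stat3, received AAV-TBG-Cre for 2 weeks and the IL-6 plasmid for 1 week. The DDC group (n = 2) carried floxed Stat3, received AAV-TBG-GFP for 2 weeks and DDC diet for 1 week, and the DDC STAT3KO group (n = 3) was treated alike with AAV-TBG-Cre. TBG is a hepatocyte promoter, so the deletion is directed at hepatocytes. The IL-6 STAT3KO group differs from the IL-6 plasmid group in Stat3 genotype and in AAV at once, and the DDC group differs from the GFP plasmid group in genotype, AAV, plasmid and diet at once; these factors cannot be told apart. No floxed, AAV-treated hepatocyte group without both IL-6 and DDC was among these libraries. The immune groups were all wild-type, with n = 2 each: macrophages on normal diet, and macrophages, T cells, neutrophils, Ly6C-low monocytes and Ly6C-high monocytes after 1 week of DDC. The labels give no age and do not say that replicates were separate animals; the p-values therefore cover no more than the spread among the libraries of a group.

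GSTs join the tripeptide glutathione to electrophilic compounds, which the hepatocyte then exports into bile or blood. They are among the abundant soluble proteins of the liver, and several are textbook targets of NRF2 (gene Nfe2l2), which binds antioxidant response elements, and of the xenobiotic receptor CAR (gene Nr1i3). The alpha class handles lipid peroxides and their aldehydes, with GSTA4 preferring hydroxyalkenals and mouse GSTA3 known for aflatoxin epoxide. GSTM1 is the main mu enzyme of mouse liver, and GSTP1 is the pi enzyme, which also binds the kinase JNK.

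The members lie in few places in the genome. On GRCm38 (GENCODE M21), Gsta4, Gsta1 and Gsta2 follow each other on chromosome 9, the 5 mu genes lie within 1 cluster on the reverse strand of chromosome 3 (Gstm6 starting at 107938847 and Gstm4 ending at 108044894), Gsta3 is on chromosome 1 and Gstp1 on chromosome 19. RefSeq promoters (250 bases before to 50 bases after the start, GRCm38.p6) were matched for 9 of the 10 members; Gsta4 was not matched. Those of the most abundant member of each class and of the 2 members with the largest rises under DDC are shown, since the results below turn on these genes. Capitals mark matches, on either strand, to TGACNNNGC (antioxidant response element core), TTCNNNGAA (STAT), TGANTCA (AP-1) or GCGTG (xenobiotic response element core).
Gsta1, chr9:78230419-78230718, forward strand: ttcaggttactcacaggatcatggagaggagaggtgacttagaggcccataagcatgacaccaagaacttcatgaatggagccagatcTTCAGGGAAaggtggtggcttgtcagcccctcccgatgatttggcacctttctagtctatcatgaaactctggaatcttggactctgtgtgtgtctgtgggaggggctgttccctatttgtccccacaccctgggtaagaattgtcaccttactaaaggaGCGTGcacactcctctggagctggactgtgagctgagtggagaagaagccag
Gsta3, chr1:21240335-21240634, forward strand: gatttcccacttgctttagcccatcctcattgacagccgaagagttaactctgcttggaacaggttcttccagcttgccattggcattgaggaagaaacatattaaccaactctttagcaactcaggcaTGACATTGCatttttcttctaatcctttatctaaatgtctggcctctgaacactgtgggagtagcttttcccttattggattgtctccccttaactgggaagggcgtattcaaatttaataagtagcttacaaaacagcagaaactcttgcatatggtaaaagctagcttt
Gstm1, chr3:108017924-108018223, reverse strand: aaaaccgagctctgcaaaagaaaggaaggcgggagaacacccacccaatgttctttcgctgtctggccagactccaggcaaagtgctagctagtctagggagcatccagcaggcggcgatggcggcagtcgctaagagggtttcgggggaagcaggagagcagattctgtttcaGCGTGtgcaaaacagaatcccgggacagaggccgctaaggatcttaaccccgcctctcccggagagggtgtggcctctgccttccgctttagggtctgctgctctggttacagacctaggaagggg
Gstm3, chr3:107969125-107969424, reverse strand: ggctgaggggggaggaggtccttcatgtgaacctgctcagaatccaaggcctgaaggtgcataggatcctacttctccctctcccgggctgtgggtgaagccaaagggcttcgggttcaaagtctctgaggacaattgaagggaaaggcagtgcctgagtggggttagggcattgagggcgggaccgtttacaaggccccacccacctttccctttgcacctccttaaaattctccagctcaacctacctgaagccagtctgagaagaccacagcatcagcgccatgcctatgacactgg
Gstp1, chr19:4037863-4038162, reverse strand: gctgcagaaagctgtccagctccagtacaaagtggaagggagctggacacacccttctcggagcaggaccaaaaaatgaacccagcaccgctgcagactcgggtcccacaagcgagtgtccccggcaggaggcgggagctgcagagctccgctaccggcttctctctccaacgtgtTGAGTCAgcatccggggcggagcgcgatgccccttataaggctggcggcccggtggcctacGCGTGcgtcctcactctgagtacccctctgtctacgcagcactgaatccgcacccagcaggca
In these windows Gsta1 held 1 STAT and 1 xenobiotic core match, Gsta3 held 1 antioxidant core match, Gstm1 held 1 xenobiotic core match, and Gstp1 held 1 AP-1 and 1 xenobiotic core match. Gstm3 held none of the 4 motifs. Over the 9 windows, 1 held the antioxidant core, 1 the STAT motif, 1 the AP-1 motif and 4 the xenobiotic core (1 of them Gsta2, whose RefSeq start lies 8643 bases from its GENCODE start), against 12.4%, 8.3%, 7.81% and 32.4% of all 32851 RefSeq promoters of the same length. These are letter matches and say nothing about binding.

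Paralogs of the family are so alike that short reads cannot always be assigned. Of all 50-base stretches of Gsta1 transcripts, 90.5% also occur in another gene (Gsta2, Gm3776 or Gm10639), and at 100 bases the share was 80.6%. The shares at 50 bases were 49.8% for Gsta2, 33.7% for Gstp1 (with Gstp2 and Gstp-ps), 28.8% for Gstm3 and 18.9% for Gstm1, and at most 5.97% for Gstm2, Gstm6, Gsta3, Gsta4 and Gstm4. The split between Gsta1 and Gsta2, and between Gstp1 and Gstp2, is therefore uncertain, and sums over the measured genes of each class are given beside the single genes.

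Library totals were 13625040 to 18428988 counts in hepatocytes and 3817794 to 12945663 in immune cells. Stat3 was 340 to 424 CPM (counts-per-million on TMM-scaled library sizes) in IL-6 plasmid and 96.0 to 116 CPM in IL-6 STAT3KO libraries, and it was 112 and 150 CPM in DDC and 56.3 to 87.3 CPM in DDC STAT3KO libraries. With the GFP plasmid it was 109 and 98.9 CPM, inside the IL-6 STAT3KO range. The STAT3 feedback gene Socs3 was 216 to 292 CPM in IL-6 plasmid libraries and 3.97 to 6.69 CPM in IL-6 STAT3KO libraries. It was 32.6 and 15.1 CPM in DDC, 6.14 to 10.99 CPM in DDC STAT3KO, and 11.65 and 11.97 CPM in GFP plasmid libraries. Counts over the whole gene do not show which exons were deleted. All 12 hepatocyte markers were detected in every hepatocyte library. IL-6 plasmid replicate 3 stood apart with 351 CPM of Il6 (3.21 and 4.90 CPM in the other 2) and 486 CPM of EGFP (5.73 and 9.24 CPM in the other 2). EGFP was 2.18 and 2.41 CPM with the GFP plasmid. DDC STAT3KO replicate 3 stood apart with a summed Kupffer cell marker level of 38.0 CPM against 244 and 286 CPM. The libraries labelled T cell had the highest sums of the 6 T cell markers among the immune libraries (255 and 232 CPM, at most 74.7 CPM elsewhere), although 1 of these genes, Cd3e, was 0.241 and 1.24 CPM. They also held Kupffer cell markers summing to 4239 and 6481 CPM, against 24390 and 19940 CPM in DDC macrophages and at most 2417 CPM in neutrophils and monocytes, and they are called the libraries labelled T cell below. In bulk RNA, fewer cells of a type and less RNA per cell cannot be told apart.

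The first comparison asked what IL-6 delivery does to hepatocyte GST transcripts. With the IL-6 plasmid, 9 of the 10 members fell relative to the GFP plasmid, and in all 10 the 3 IL-6 plasmid libraries lay below both GFP plasmid libraries. How many of all genes were separated in this way was not counted, here or in the comparisons below. Of all 14339 genes tested, 25.9% passed the same threshold in either direction (edgeR quasi-likelihood test, threshold 0.05 after Benjamini-Hochberg adjustment across the whole table). The median log2 fold change of the members was -3.08, against 0.05 over all genes tested.

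Among the alpha genes, Gsta3, the most abundant alpha transcript, was 1567 and 1657 CPM with the GFP plasmid and 53.0, 48.0 and 47.8 CPM with the IL-6 plasmid. The 3 low values sit close together, and the fitted log2 fold change was -5.02 ± 0.38 (SE; adjusted p = 1.13e-05). Gsta2 was 42.1 and 69.5 CPM against 0.158, 0.0617 and 0.562 CPM, which is 12 counts in the IL-6 plasmid group in all. Its log2 fold change of -7.67 ± 0.68 (adjusted p = 2.67e-05) was the most negative of the 10. Gsta1 was already scarce, at 0.896 and 1.03 CPM with the GFP plasmid. It had 3 counts in the IL-6 plasmid group against 29, a 14.4-fold difference with a 95% counting interval of 4.46 to 73.9. Gsta4 was 66.9 and 60.3 CPM against 16.4, 10.8 and 1.44 CPM, with the lowest value in replicate 3 (log2 fold change -2.74 ± 0.62, adjusted p = 0.00701).

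Among the mu genes, Gstm1 fell from 945 and 792 CPM to 76.8, 62.1 and 104 CPM (log2 fold change -3.42 ± 0.49, adjusted p = 0.000458). Gstm3 fell from 72.7 and 53.5 CPM to 2.92, 2.84 and 6.86 CPM (-3.90 ± 0.63, adjusted p = 0.00111). In both genes the highest of the IL-6 plasmid values was replicate 3, and no value came near the GFP plasmid range. Gstm4 and Gstm6 fell by smaller factors, with log2 fold changes of -2.02 ± 0.33 and -2.70 ± 0.30. Gstm2 was 34.2 and 26.1 CPM against 8.92, 6.17 and 17.7 CPM and did not pass the test (log2 fold change -1.46 ± 0.63, adjusted p = 0.107). The pi gene Gstp1 fell least among the 9, from 1805 and 1224 CPM to 642, 744 and 637 CPM (-1.17 ± 0.36, adjusted p = 0.0302).

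The calls for Gsta1 and Gstp1 rest on every library: with any 1 of the 5 left out, both lost the threshold and 7 members remained called. In the IL-6 plasmid libraries the cholangiocyte markers in the table (4 of 6) summed to 2205 to 10750 CPM, against 4.67 to 5.57 CPM with the GFP plasmid. Of these markers, Epcam had 63 counts in the IL-6 plasmid group and 0 in the GFP plasmid group. Krt7 had 2 counts in the IL-6 plasmid group, so nearly all of the sum came from the other cholangiocyte markers. The 5 Kupffer cell markers summed to 45.9 to 116 CPM against 19.5 to 24.8 CPM. The mitochondrial share of counts was 2.05% to 2.76% in IL-6 plasmid libraries against 5.561% and 5.603% with the GFP plasmid, and the share of Alb, the albumin gene, was 0.557% to 6.45% against 5.28% and 5.83%. The part of other cells and of these shares in the result was not tested.

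**Figure D1:**
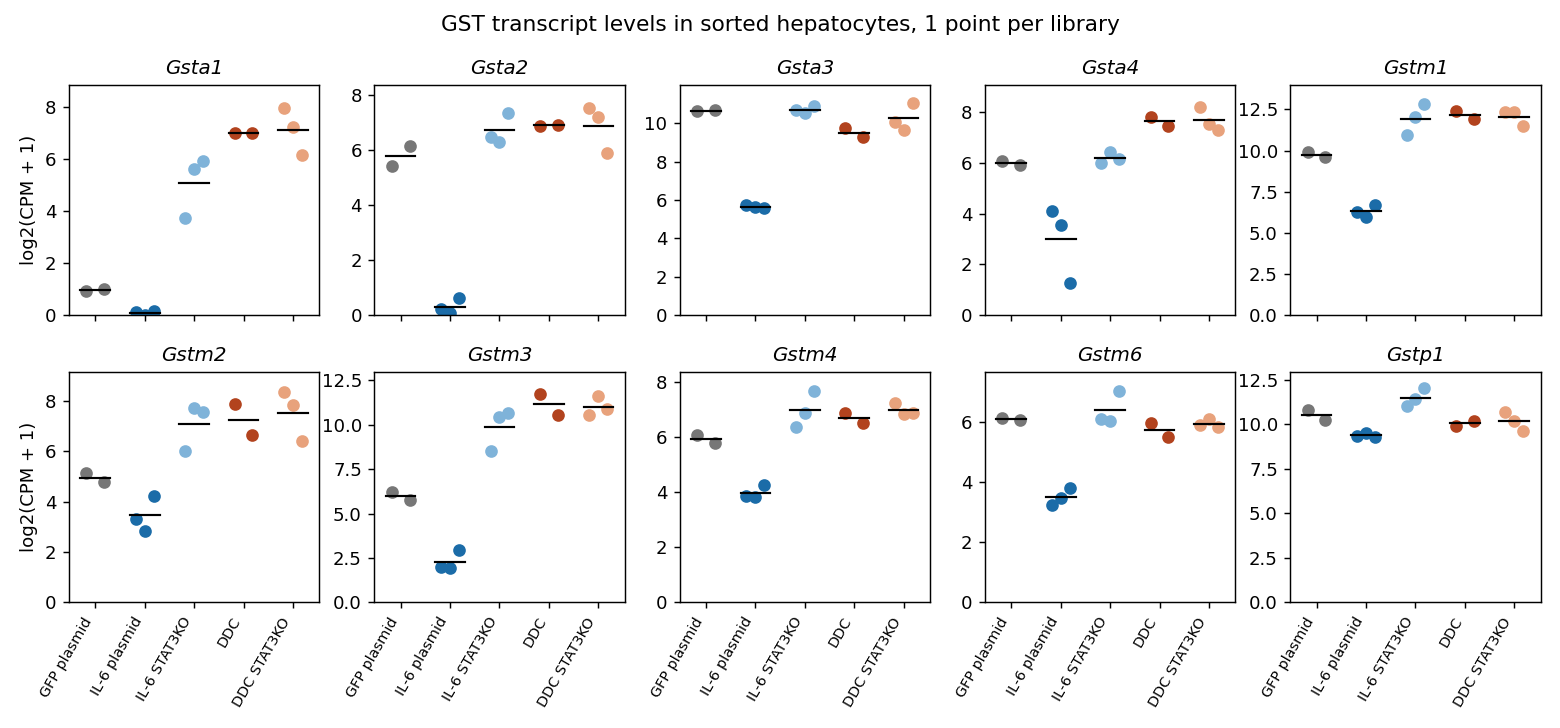
Level of each GST gene in every hepatocyte library as log2(CPM + 1), grouped by condition; points are libraries and black lines are means on that scale. In all 10 genes the 3 IL-6 plasmid libraries lie below both GFP plasmid libraries and below all 3 IL-6 STAT3KO libraries.

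IL-6 STAT3KO hepatocytes were compared next with the IL-6 plasmid group, from which they differ in both Stat3 genotype and AAV. In IL-6 STAT3KO hepatocytes all 10 members rose relative to the IL-6 plasmid group, with no overlap between the groups in any of them, while 26.4% of all genes tested passed in either direction. The median log2 fold change of the members was 4.44, against 0.00 over all genes. The summed cholangiocyte markers were 6.87 to 48.9 CPM in IL-6 STAT3KO against 2205 to 10750 CPM (3 of 3 tested lower), and the mitochondrial share of counts was 4.16% to 5.92% against 2.05% to 2.76%; their part in the result was not tested. This comparison shares the IL-6 plasmid libraries with the first, so the mirrored direction is not a second measurement.

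Gsta3 was 1662, 1505 and 1878 CPM in IL-6 STAT3KO libraries, a log2 fold change of 5.08 ± 0.37 over the IL-6 plasmid (adjusted p = 4.38e-06). Gsta2 was 88.4, 78.9 and 164 CPM (8.66 ± 0.68, adjusted p = 7.69e-06). Gsta1 was 12.3, 47.7 and 59.7 CPM, or 1990 counts against 3, a 603-fold difference with a counting interval of 206 to 2928. For Gsta1, replicate 1 was the lowest by a wide margin, and the same library was the lowest of the 3 for both abundant mu genes. Gstm1 was 1957, 4152 and 7408 CPM (5.80 ± 0.52, adjusted p = 1.79e-05), and Gstm3 was 365 (replicate 1), 1391 and 1597 CPM (8.05 ± 0.73, adjusted p = 1.81e-05). Gstp1 was 2069, 2761 and 4280 CPM, rising by 2.17 ± 0.34 (adjusted p = 0.000632). The other 4 members rose by 2.94 (Gsta4) to 3.80 (Gstm2). Leaving out any 1 of the 6 libraries left 10 of 10 called.

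IL-6 STAT3KO hepatocytes lay above the GFP plasmid level for 3 members, against 3.12% of all genes passing in either direction. These groups differ in plasmid, Stat3 genotype and AAV at once, and these factors cannot be told apart. Gsta1 rose by 5.36 ± 0.78 (adjusted p = 0.00266), Gstm3 by 4.15 ± 0.72 (adjusted p = 0.00828) and Gstm1 by 2.37 ± 0.52 (adjusted p = 0.0285). All 3 IL-6 STAT3KO values of each lay above both GFP plasmid values. Gstm2 (2.34 ± 0.68, adjusted p = 0.0892), Gstm4 (1.15 ± 0.34, adjusted p = 0.0898) and Gstp1 (1.00 ± 0.37, adjusted p = 0.168) had positive estimates that did not pass, and the estimate of Gsta3 was 0.06 ± 0.34. With DESeq2 8.2% of the genes it tested passed, against the 3.12% above. No member stayed called without GFP plasmid replicate 1 or without replicate 2, where the remaining library is assumed to vary like the other groups, and DESeq2 called 5.

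**Figure D2:**
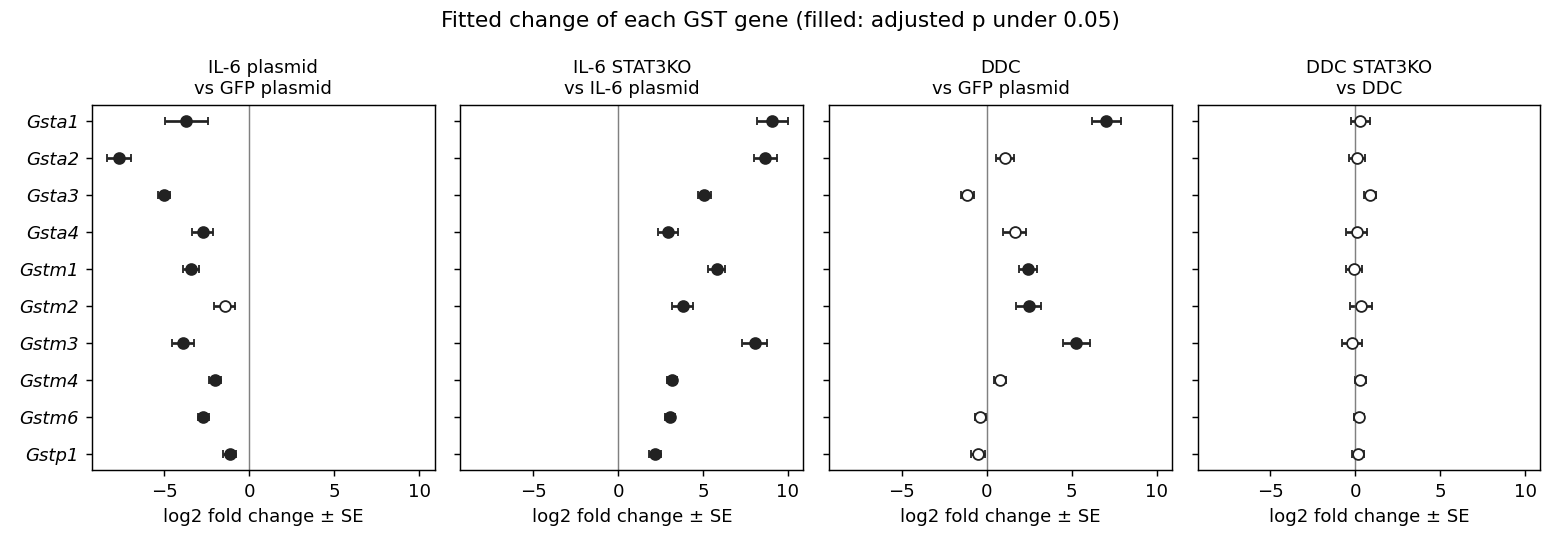
Fitted log2 fold change (x axis, bars are SE) of each GST gene in 4 hepatocyte comparisons, with filled points where the adjusted p is under 0.05. Changes run from -7.67 to -1.17 for the 9 called genes in IL-6 against GFP plasmid, and no point is filled for DDC STAT3KO against DDC.

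Under DDC part of the family rose. Relative to the GFP plasmid, 4 members rose in DDC hepatocytes (Gsta1, Gstm1, Gstm2 and Gstm3) and none fell, with 18.6% of all genes passing in either direction. The member median was 1.38, against 0.02 over all genes. Gsta1 went from 0.896 and 1.03 CPM to 128 and 128 CPM (log2 fold change 7.04 ± 0.84, adjusted p = 0.000688). Gstm3 went from 72.7 and 53.5 CPM to 3399 and 1504 CPM (5.28 ± 0.78, adjusted p = 0.0019). Gstm1 reached 5365 and 3942 CPM (2.42 ± 0.54, adjusted p = 0.0123), and Gstm2 reached 235 and 97.9 CPM (2.46 ± 0.72, adjusted p = 0.0344).

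For the other 6, Gsta3 was 846 and 612 CPM, below both GFP plasmid libraries, with an estimate of -1.14 ± 0.38 that just missed the threshold (adjusted p = 0.0552). It was called lower with the replicate block (-1.16), with only the compared groups (-1.14), with DESeq2 (-1.14) and with IL-6 plasmid replicate 3 and DDC STAT3KO replicate 3 left out together (-1.16). Gsta4 was 227 and 175 CPM (1.66 ± 0.67, adjusted p = 0.103), Gsta2 was 118 and 121 CPM (1.10 ± 0.54, adjusted p = 0.166) and Gstm4 was 119 and 90.7 CPM (0.78 ± 0.36, adjusted p = 0.143). Gstm6 (-0.36 ± 0.32, adjusted p = 0.456) and Gstp1 (-0.51 ± 0.40, adjusted p = 0.389) had negative estimates that did not pass. The count of called members fell to 2 without DDC replicate 1, GFP plasmid replicate 1 or GFP plasmid replicate 2, and rose to 8 (7 higher and Gsta3 lower) with only the compared groups in the fit and to 7 (6 higher and Gsta3 lower) without both of those replicate 3 libraries. The call for Gstm2 was lost with any 1 of the 4 libraries left out (adjusted p 0.0535 to 0.187) and that for Gstm1 in 3 of the 4 fits, while Gsta1 and Gstm3 stayed called in all 4. The share of all genes passing rose too, from 18.6% to 33.6% with only the compared groups in the fit. It was 28.2% without both replicate 3 libraries. DDC libraries also held more marker RNA of other cells, with Kupffer cell markers summing to 211 and 334 CPM (all 5 detected) and cholangiocyte markers to 519 and 569 CPM (4 of 6 in the table). The part of these cells in the result was not tested.

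Stat3 deletion was then compared within DDC diet, where both groups carried floxed Stat3 and AAV. None of the 10 members passed and the groups overlapped in every one, and 0% of the 14339 genes tested passed. At an unadjusted p under 0.05, 803 genes (5.6%) and 1 member (Gsta3) were counted, and DESeq2 called 19 of the 1288 genes it tested and 0 members. Those 1288 genes may not include all 10 members, so the DESeq2 count may cover only part of the family. The member estimates ran from -0.20 (Gstm3) to 0.86 (Gsta3), with SE from 0.30 to 0.63, and differences within such errors were not detectable. Gstm1 was 5264, 5267 and 2845 CPM in DDC STAT3KO, Gstm3 was 1472, 3080 and 1857 CPM, and Gsta1 was 246, 149 and 70.7 CPM. Replicate 3 was the lowest for Gstm1 and Gsta1 and the highest for Gsta3, which was 1054, 810 and 2111 CPM.

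Against the GFP plasmid, DDC STAT3KO hepatocytes showed 4 members higher and none lower, with 15.9% of all genes passing in either direction. These were Gsta1 (7.32 ± 0.84, adjusted p = 0.000506), Gstm3 (5.08 ± 0.75, adjusted p = 0.00194), Gstm2 (2.81 ± 0.70, adjusted p = 0.0205) and Gstm1 (2.36 ± 0.52, adjusted p = 0.0122). The comparison shares the GFP plasmid libraries with DDC against GFP plasmid. Genotype, AAV, plasmid and diet again differ at once and cannot be told apart. Gstm4 was next at 1.07 ± 0.34 (adjusted p = 0.0506), and Gsta4 had 1.74 ± 0.64 (adjusted p = 0.0835). With DDC STAT3KO replicate 3 left out, 23.9% of all genes passed, against 15.9% with all libraries. Without DDC STAT3KO replicate 3, which had the fewest Kupffer cell markers, 7 members were called, 6 higher and Gsta3 lower (-0.79, adjusted p = 0.0318), and without GFP plasmid replicate 1 or 2 the count was 2.

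DDC and IL-6 were also set side by side. DDC hepatocytes exceeded IL-6 plasmid hepatocytes in 9 members, and in all 10 both DDC libraries lay above all 3 IL-6 plasmid libraries, with 11.6% of all genes passing in either direction. These rises ran from 2.34 (Gstm6) to 9.18 (Gstm3) on the log2 scale among the members with more than 3 counts, and Gsta1 differed 1913-fold (5277 counts against 3, counting interval 654 to 9280). Gstp1 did not pass (0.66 ± 0.36, adjusted p = 0.262). The same pair of treatments was compared in STAT3KO hepatocytes, which shared genotype and AAV. DDC STAT3KO exceeded IL-6 STAT3KO in Gsta1 (1.96 ± 0.52, adjusted p = 0.0337) and lay below it in Gstp1 (-1.33 ± 0.33, adjusted p = 0.0253), with 9.83% of all genes passing, and the Gstm1 estimate was -0.02 ± 0.42 (0.20 with library totals). Only 1 of the 2 was called with library totals, with the replicate block or with only the compared groups in the fit, 0 without DDC STAT3KO replicate 2 (1 without any 1 of the IL-6 STAT3KO libraries or DDC STAT3KO replicate 1), and 4 members with IL-6 plasmid replicate 3 and DDC STAT3KO replicate 3 left out together. In that last fit 15.9% of all genes passed, against 9.83% with all libraries.

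The 2 STAT3KO differences, under the IL-6 plasmid and under DDC, were compared directly by a test of their interaction. The STAT3KO difference under the IL-6 plasmid exceeded that under DDC for 9 members, with 8.28% of all genes passing in either direction. It ran from 2.00 ± 0.48 for Gstp1 (adjusted p = 0.0254) to 8.79 ± 1.10 for Gsta1 (adjusted p = 0.00071) on the log2 scale. Gsta4 missed the threshold at 2.86 ± 0.81 (adjusted p = 0.0508). The controls of the 2 arms are not alike, since the IL-6 plasmid group was wild-type without AAV and the DDC group floxed with AAV-TBG-GFP.

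The shape of the family changed as well as its size. Per kilobase of exon, the GFP plasmid order by mean was Gstp1 (978 CPM per kb), Gstm1 (590) and Gsta3 (371), then Gsta4 (50.2), Gstm3 (48.2), Gsta2 (47.4), Gstm4 (35.7), Gstm6 (34.3), Gstm2 (17.96) and Gsta1 (1.01). The exon union of Gsta3 was 4344 bases, against 956 (Gsta1) to 1989 (Gstm6) in the other members. Its rank and the class shares therefore depend on this annotated length. Without division by length, Gsta3 had the highest GFP plasmid mean at 1612 CPM, against 1514 CPM for Gstp1 and 869 CPM for Gstm1. In DDC it was Gstm1 (3160 CPM per kb), Gstm3 (1870) and Gstp1 (689), then Gsta3 (168), Gsta4 (159) and Gsta1 (134), with Gstm6 last (26.7). Of the CPM per kb summed over the 10 genes, the pi gene held 48.4% and 40.8% with the GFP plasmid and 78.0% to 85.7% with the IL-6 plasmid. Mu genes held 32.9% and 34.0% with the GFP plasmid, 10.8% to 19.6% with the IL-6 plasmid, 48.2% to 65.5% in IL-6 STAT3KO, 84.1% and 75.6% in DDC and 71.9% to 81.8% in DDC STAT3KO. Alpha genes held 18.7% and 25.2% with the GFP plasmid and at most 15.4% in every library of the other 4 groups. The sum itself was 2408 and 1940 CPM per kb with the GFP plasmid and 512 to 561 with the IL-6 plasmid, the lowest and most even group.

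**Figure D3:**
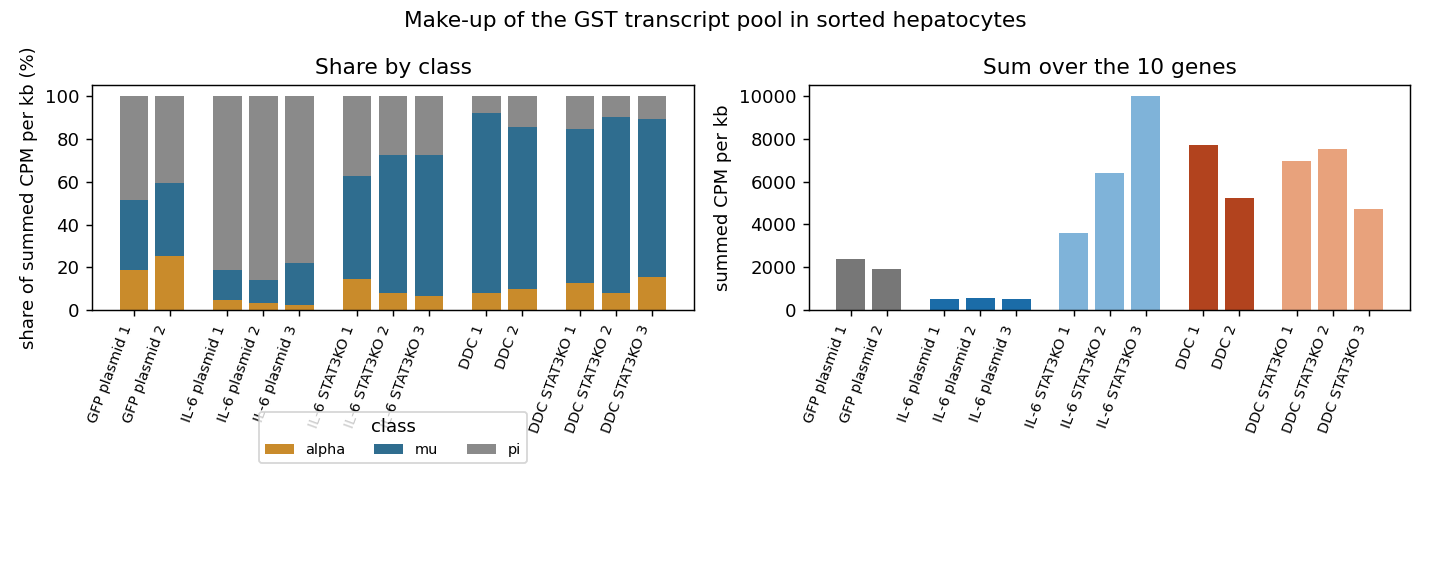
Left, share of each GST class in the CPM per kb summed over the 10 genes in every hepatocyte library (%); right, that sum. The pi share is 78.0% to 85.7% in IL-6 plasmid libraries, and the sum there is 512 to 561 against 1940 and 2408 with the GFP plasmid. Shares and sums depend on the annotated exon lengths, of which that of Gsta3 is the longest (4344 bases).

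Summing reads within a class removes the split between the paralogs summed, but the alpha sum leaves out Gm3776 and Gm10639, which share 75.7% and 31.3% of the 50-base stretches of Gsta1. With the 4 alpha, 7 mu and 3 pi rows of the hepatocyte table summed, all 3 classes fell with the IL-6 plasmid. The alpha sum fell by 4.86 on the log2 scale (SE 0.30, adjusted p = 4.00e-06), the mu sum fell by 2.83 (SE 0.46, adjusted p = 0.00105) and the pi sum fell by 1.14 (SE 0.35, adjusted p = 0.0314). The pi call was lost with any 1 of the 5 libraries left out. All 3 rose from IL-6 plasmid to IL-6 STAT3KO, by 5.00 ± 0.30, 5.22 ± 0.48 and 2.15 ± 0.33. Under DDC only the mu sum rose over the GFP plasmid (2.69 ± 0.53, adjusted p = 0.00675), while alpha was at -0.56 ± 0.31 (adjusted p = 0.217) and pi at -0.50 ± 0.39 (adjusted p = 0.393). The alpha sum is carried by Gsta3, so the rise of Gsta1 does not show in it. The mu sum also exceeded the GFP plasmid in IL-6 STAT3KO (2.39 ± 0.50, adjusted p = 0.0228) and DDC STAT3KO (2.61 ± 0.50, adjusted p = 0.00668), and none of these 3 mu calls held without GFP plasmid replicate 1 or without replicate 2. The class mu call in IL-6 STAT3KO was also lost without IL-6 STAT3KO replicate 2 (adjusted p = 0.0538) or replicate 3 (adjusted p = 0.0637).

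Ordered by level, the groups differ between genes. For Gstm1 the order was IL-6 plasmid, GFP plasmid, then IL-6 STAT3KO, DDC STAT3KO and DDC, whose ranges overlap. Gstm3 and Gsta1 had the same lowest 2 groups without overlap. Above them, Gstm3 overlapped between IL-6 STAT3KO, DDC STAT3KO and DDC, while the highest IL-6 STAT3KO value of Gsta1 (59.7 CPM) lay below every DDC and DDC STAT3KO value. For Gstp1 the order was IL-6 plasmid, then DDC below GFP plasmid without overlap, with DDC STAT3KO overlapping both, then IL-6 STAT3KO, whose lowest library (2069 CPM) was above every other. Gsta3 was lowest with the IL-6 plasmid, and next in DDC, which lay below GFP plasmid and IL-6 STAT3KO but overlapped DDC STAT3KO; the ranges of the latter 3 groups overlapped.

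The rest of the glutathione pathway was described by gene lists. Their counts stand beside the share of all genes tested that passed in either direction, which was 25.9% with the IL-6 plasmid, 18.6% in DDC over the GFP plasmid and 26.4% in IL-6 STAT3KO over the IL-6 plasmid. Of 11 other cytosolic and mitochondrial GSTs tested, 6 fell and none rose with the IL-6 plasmid (median -1.12), led by Gsto1 (-1.96), Gstt1 (-2.48) and Gstk1 (-1.39), while under DDC 1 rose and 2 fell. Gstt1, a theta enzyme, was 151 and 172 CPM in GFP plasmid libraries, 32.7, 36.4 and 17.5 CPM in IL-6 plasmid libraries and 170 to 188 CPM in IL-6 STAT3KO. Of the 5 microsomal relatives tested, 1 rose and 2 fell with the IL-6 plasmid (median 2.21). Counts were few for Mgst2 (34 against 0 in the GFP plasmid group) and Alox5ap (15 against 2), so this median is uncertain. Under DDC 1 rose and none fell (median 1.73). Among them Mgst3, a membrane enzyme with peroxidase activity, fell with the IL-6 plasmid (-1.59, adjusted p = 0.00067) and rose under DDC (1.73, adjusted p = 0.00196). It was 11.4 and 9.98 CPM in GFP plasmid libraries, 3.08 to 3.93 CPM in IL-6 plasmid libraries and 34.5 and 36.3 CPM in DDC, with no overlap among the 3 groups. Of 11 genes of glutathione breakdown and reduction tested, 3 rose and 2 fell with the IL-6 plasmid, and 2 rose and 2 fell under DDC. Of 11 glutathione peroxidases and peroxiredoxins tested, 1 rose and 2 fell with the IL-6 plasmid, and none passed under DDC.

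Of 9 genes of glutathione synthesis and cysteine supply tested, 3 fell and none rose with the IL-6 plasmid (median -0.50): Cth, which makes cysteine (-1.98), and Gclm (-0.82) and Gclc (-1.28), the subunits of the rate-limiting ligase. Under DDC 3 rose and none fell (median 0.00): Slc7a11, the cystine importer, Gss, glutathione synthetase (1.08), and Slc3a2, the importer's heavy chain (1.08). Slc7a11 had 1 count in the GFP plasmid group and 324 in DDC, a ratio of 237 with a counting interval of 42.2 to 9373. For conjugate export and mercapturate formation, 2 of 10 genes rose and 5 fell with the IL-6 plasmid, led by the ABC transporter Abcc6 (-2.30) and the canalicular conjugate pump Abcc2 (-1.49). Under DDC 3 rose and 2 fell, led by the basolateral pump Abcc4 (3.88), and Abcc4 was also higher in IL-6 STAT3KO than with the GFP plasmid (3.27, adjusted p = 0.000643).

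The list of NRF2 targets other than GSTs held 19 genes, all tested. Of these, 9 rose and none fell in DDC over the GFP plasmid (median 1.08), led by the quinone reductase Nqo1 (2.53), Pgd of the pentose phosphate pathway (2.41) and the sulfiredoxin Srxn1 (3.23). With the IL-6 plasmid 3 rose and 5 fell (median 0.09), and the leading 3 were Ephx1 (-1.51), an epoxide hydrolase, Pgd (1.87) and G6pdx (2.80). Nqo1 was 5.31 and 5.30 CPM with the GFP plasmid, 5.29, 5.18 and 6.43 CPM with the IL-6 plasmid, 18.6 to 42.2 CPM in IL-6 STAT3KO and 25.6 and 35.7 CPM in DDC. The IL-6 plasmid and GFP plasmid libraries thus lay side by side for Nqo1, where those of Gstm1 and Gsta3 did not overlap. In IL-6 STAT3KO against the IL-6 plasmid, 11 of 19 rose and 2 fell, led by Nqo1 (2.40), Ephx1 (2.09) and Ugdh (2.93), which makes UDP-glucuronate.

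**Figure D4:**
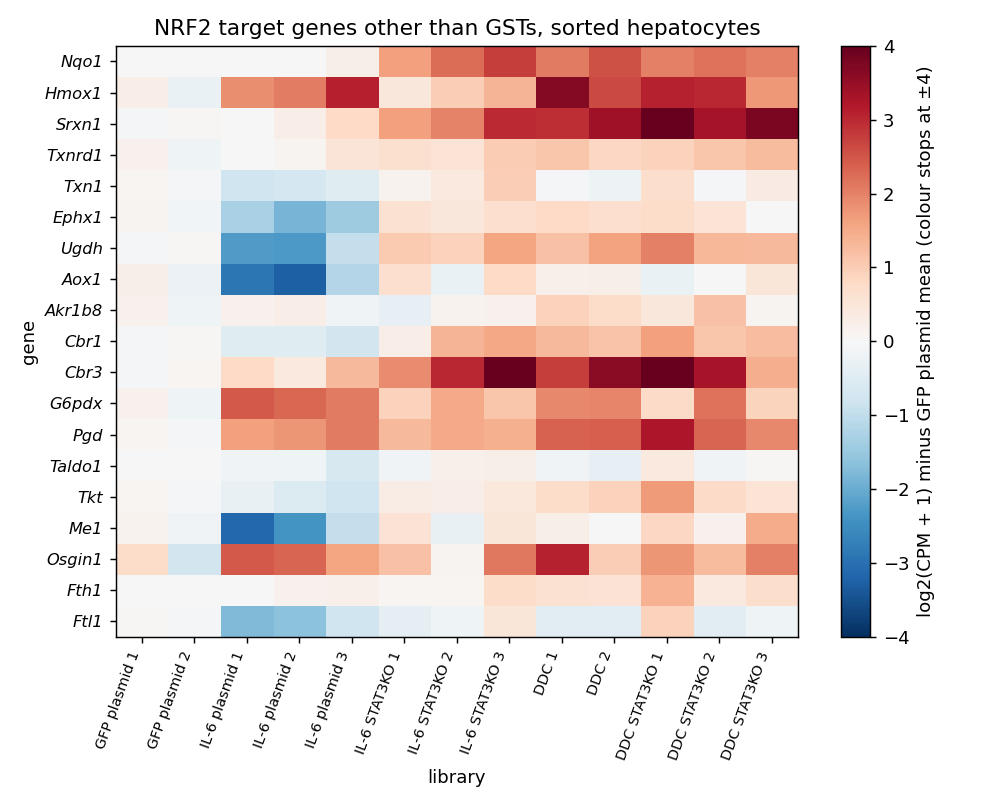
Level of 19 NRF2 targets other than GSTs in every hepatocyte library as log2(CPM + 1) minus the GFP plasmid mean (colour, limited to ±4). Nqo1 and Srxn1 are near 0 in most IL-6 plasmid libraries and positive in IL-6 STAT3KO, DDC and DDC STAT3KO libraries, while Ephx1, Ugdh and Aox1 are negative in all 3 IL-6 plasmid libraries.

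Among 19 transcription factors known to act on GST genes, 1 rose and 5 fell with the IL-6 plasmid, a share near the 25.9% of all genes, led by the receptor Nr1i3 (-2.37), Cebpa (-1.61) and Nr3c1 (-0.83), the glucocorticoid receptor. Nr1i3 was 38.0 and 38.2 CPM in GFP plasmid libraries, 5.13 to 8.86 CPM in IL-6 plasmid libraries, 17.2 to 32.3 CPM in IL-6 STAT3KO and 10.7 and 17.0 CPM in DDC. Under DDC 2 rose and 3 fell, near the 18.6% of all genes, led by Mafk (1.22), Nfe2l2 (1.13) and Cebpa (-1.65). Transcript levels do not show the activity of these factors.

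The genes most like a member were named by Pearson's r of log2(CPM + 1) over the 13 hepatocyte libraries among 5742 other genes that averaged 20 CPM or more. The libraries fall into groups that are far apart, so r mostly reflects group means and carries no p. For Gsta3 they were Pyroxd2 (r = 0.989, Spearman's rho = 0.874), Ces1d (0.989 and 0.962), a carboxylesterase, and Akr1c6 (0.988 and 0.885), a steroid dehydrogenase. For Gstm1 they were Entpd5 (0.975 and 0.846), Cyp2a5 (0.97 and 0.868), a xenobiotic-metabolising cytochrome P450, and Ephx1 (0.969 and 0.885). For Gstp1 they were Tsc22d1 (0.943 and 0.945), B2m (0.94 and 0.973), the light chain of MHC class I, and Slc25a17 (0.928 and 0.907). Ces1d averaged 532 CPM with the GFP plasmid, 5.03 CPM with the IL-6 plasmid and 197 CPM in DDC, and Cyp2a5 averaged 564, 25.7 and 1934 CPM in the same groups.

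Macrophages were the immune cells sorted on both diets. In them 2 of 10 members rose after DDC, Gstm1 and Gstm3, against 0.0252% of 27759 genes (7 genes, all higher). Gstm1 was 3868 and 473 CPM after DDC against 38.3 and 91.5 CPM on normal diet (log2 fold change 5.06 ± 0.81, adjusted p = 0.0346). Gstm3 was 2439 and 339 CPM against 1.87 and 10.1 CPM (7.85 ± 1.15, adjusted p = 0.0258). In each the 2 DDC libraries differ several-fold but both exceed the normal diet range. Gsta1 was 119 and 10.3 CPM against 0.089 and 0.456 CPM and did not pass (7.79 ± 1.39, adjusted p = 0.0617), nor did Gstp1 at 904 and 267 CPM against 106 and 173 CPM (2.07 ± 0.57, adjusted p = 0.325). In 8 of 10 members both DDC macrophage libraries lay above both normal diet libraries, but the share of all genes separated in this way was not counted. The member median log2 fold change was 2.75 against -0.62 over all genes tested. With library totals in place of TMM these medians were 1.98 and -1.42. The mu class sum was at the threshold (4.94 ± 0.81, adjusted p = 0.05). With no filter on low counts 0.54% of all genes passed, against 0.0252% with the filter. No member stayed called without DDC macrophage replicate 1 (Gstm1 2.73, adjusted p = 0.493; Gstm3 5.69, adjusted p = 0.216), 1 did without normal diet macrophage replicate 1, 3 were called without DDC macrophage replicate 2, and 5 with no filter on low counts.

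Hepatocyte markers were present in every immune group. All 12 were detected in both DDC macrophage libraries, where they summed to 2841 and 313 CPM against 345 and 463 CPM on normal diet. DDC macrophage replicate 2, with 313 CPM of markers, held 339 CPM of Gstm3, while the normal diet libraries with 345 and 463 CPM of markers held 1.87 and 10.1 CPM. The hepatocytes differed as well, with Gstm3 at 3399 and 1504 CPM in DDC and 72.7 and 53.5 CPM with the GFP plasmid. Markers of other cells were higher in both DDC macrophage libraries without overlap: cholangiocyte markers summed to 101 and 83.9 CPM against 8.09 and 12.7 CPM, neutrophil markers to 343 and 249.5 CPM against 47.8 and 82.0 CPM, and stellate cell markers to 684 and 443 CPM against 151 and 164 CPM. The part of these cells in the result was not tested. Per 100 CPM of hepatocyte markers, Gstm3 was 85.8 and 108 CPM in DDC macrophages and 3.22 and 1.69 CPM in DDC hepatocytes, and Gstm1 was 136 and 151 CPM against 5.08 and 4.43 CPM. For normal diet macrophages and GFP plasmid hepatocytes, Gstm1 was 11.1 and 19.8 CPM against 0.915 and 0.75 CPM on the same scale. Gstm3 was 0.541 and 2.18 CPM against 0.0704 and 0.0506 CPM there. The DDC hepatocytes compared here carried floxed Stat3 and AAV-TBG-GFP, and the macrophages were wild-type.

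Across the 5 immune cell groups on DDC, 6 of 10 members differed (Gsta1, Gsta3, Gstm1, Gstm2, Gstm3 and Gstp1), against 2.18% of all genes tested (edgeR test of any difference). Gstm1 was 3356 and 2776 CPM in the libraries labelled T cell, 691 and 564 CPM in neutrophils, 711 and 508 CPM in Ly6C-low monocytes and 279 and 372 CPM in Ly6C-high monocytes. Gstm3 was 4625 and 2599 CPM, 349 and 354 CPM, 536 and 345 CPM, and 22.9 and 137 CPM in the same order. The Ly6C-high monocytes were lowest for both, and neutrophils and Ly6C-low monocytes overlapped for both. Gstp1 was 608 and 671 CPM in the libraries labelled T cell, 152 and 93.5 CPM in neutrophils, 221 and 181 CPM in Ly6C-low monocytes and 181 and 165 CPM in Ly6C-high monocytes. Adjusted p-values ran from 0.0162 (Gstm3) to 0.0465 (Gstm1) among the 6. The count was 0 without the libraries labelled T cell and also without replicate 1 of them alone, 1 without Ly6C-high monocyte replicate 1 or with only the 5 compared groups in the fit, and 3 and 2 without Ly6C-low monocyte replicate 1 and 2.

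The 3 libraries with the most GST transcripts also held the most hepatocyte marker transcripts: 4435 and 3080 CPM in the libraries labelled T cell and 2841 CPM in DDC macrophage replicate 1, against at most 917 CPM elsewhere. Per 100 CPM of these markers, Gstm3 lay between 38.1 and 126 CPM in all 10 DDC immune libraries and at 0.541 and 2.18 CPM in the 2 normal diet macrophage libraries. On this scale Gsta1 was 1.27 to 5.95 CPM against 0.0258 and 0.0985 CPM. Gstm1 ranged more widely, from 75.3 to 962 CPM against 11.1 and 19.8 CPM. Gstp1 ranged from 13.7 to 625 CPM, and its normal diet values of 30.7 and 37.4 CPM lay inside that range. The highest Gstm1 and Gstp1 values were those of Ly6C-high monocyte replicate 1. In macrophages, mu genes held 84.7% and 75.9% of the summed CPM per kb after DDC and 34.1% and 42.1% on normal diet. On normal diet Gstp1 held 56.0% and 52.6%. Over all 10 DDC immune libraries the mu share was 64.5% to 88.0%. The other cell types had no normal diet group, so diet and cell type cannot be told apart over the 10. The part of hepatocyte RNA in the immune levels was not tested beyond these ratios.

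**Figure D5:**
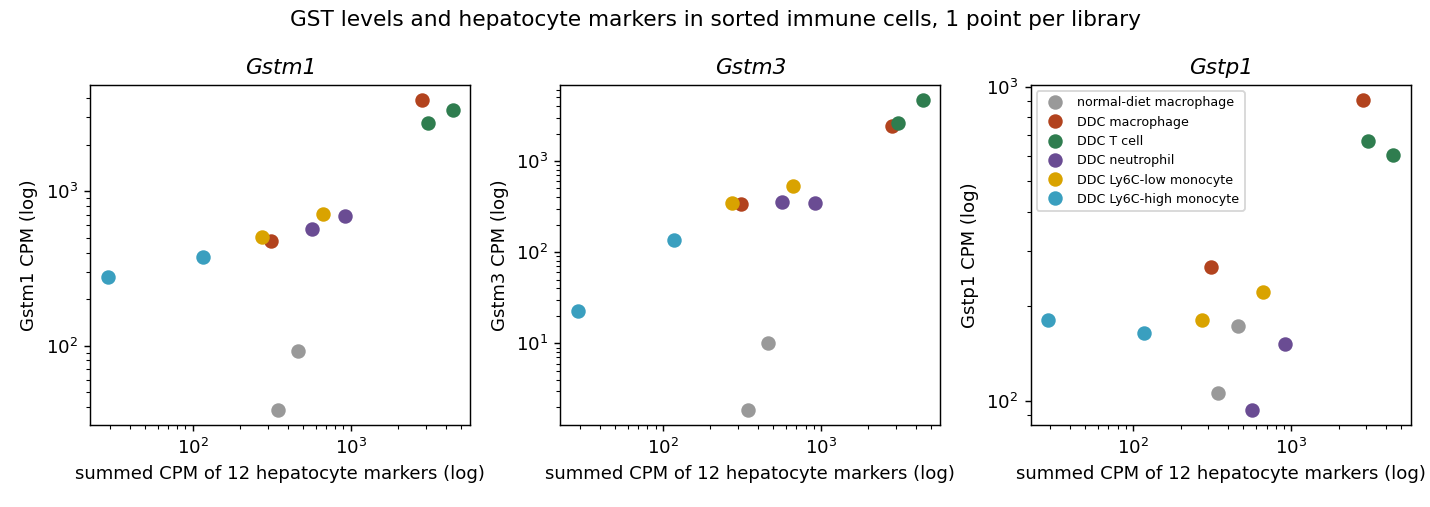
Level of Gstm1, Gstm3 and Gstp1 (CPM, log axes) against the summed CPM of 12 hepatocyte markers in each immune library, coloured by group. The 2 normal diet macrophage libraries hold 345 and 463 CPM of markers but 1.87 and 10.1 CPM of Gstm3, and the 10 DDC libraries hold 22.9 CPM or more.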

How the data were processed

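RNA-seq of sorted hepatocytes (13 libraries) and liver immune cells (12 libraries) was used as raw counts per gene, deposited by the authors in 1 table per cell compartment. Per the submitters' processing notes, STAR, HTSeq, DESeq2 and the build mm10 were used; tool versions and the strand setting were not given in the sources used here. Library totals were 13625040 to 18428988 counts in hepatocytes and 3817794 to 12945663 in immune cells. All columns were matched to samples, and the EGFP row was left out of every library total and test. The tables were normalized separately, so no test crosses them.

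Each table was fitted once with all its groups in edgeR 4.0.16 (R 4.3.3; limma 3.58.1): filterByExpr by group, TMM factors, quasi-likelihood F test, and Benjamini-Hochberg adjustment over all genes tested (14339 and 27759) with a threshold of 0.05. The residual degrees of freedom were 8 and 6, and the common biological coefficient of variation was 0.313 and 1, so only very large differences pass in the immune table. Standard errors are the log2 fold change divided by the square root of F. CPM use TMM-scaled library sizes, and CPM per kb divide by the exon union of GENCODE M21. Class sums replaced the single rows of each class by 1 row. For groups with 3 counts or fewer, ratios with exact 95% counting intervals are given, which cover counting error only. Paralog sharing was computed from all 50-base and 100-base stretches of the transcripts. The fit was also run on counts simulated from its own estimates of spread, with rises in a single group only. That setting is simpler than these data, and its outcome is not used here.

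The text names all 10 members in every comparison, up to 3 genes per list and comparison with the smallest adjusted p, Stat3 and Socs3, the 3 genes most like the leading member of each class, and markers that move with a result. Members and lists were chosen with earlier results of these data known. Alternatives were median-of-ratios factors, library totals, no filter on low counts, a replicate block, only the compared groups, DESeq2 1.42.0 and each library left out in turn with the tested genes kept. Chosen after seeing the data were leaving out IL-6 plasmid replicate 3 with DDC STAT3KO replicate 3, the libraries labelled T cell, these with DDC macrophage replicate 1, and adding Gm3776 and Gm10639 to the alpha sum.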

Additional observations from a re-analysis of the deposited data

Results flagged for a closer look

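For 9 members the STAT3KO difference under the IL-6 plasmid was unlike that under DDC (edgeR quasi-likelihood test of the interaction, adjusted over all genes tested). The difference, IL-6 STAT3KO against IL-6 plasmid minus DDC STAT3KO against DDC on the log2 scale, was 8.79 for Gsta1, 8.54 for Gsta2, 4.22 for Gsta3, 5.86 for Gstm1, 3.46 for Gstm2, 8.24 for Gstm3, 2.89 for Gstm4, 2.87 for Gstm6 and 2.00 for Gstp1. The controls differ, since IL-6 plasmid mice were wild-type without AAV and DDC mice were floxed with AAV-TBG-GFP. The calls for Gstm2 and Gstp1 were each lost in 5 of the 11 fits that left out 1 library, and those for the other 7 in none. The value for Gsta1 rests on 3 counts in the IL-6 plasmid group.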

How the results depend on the processing

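Of 380 fold changes or joint tests of called members with 1 library left out, 308 stayed called in the same direction, 72 lost the threshold and none reversed; of 348 under the other planned settings 335 stayed called and 13 did not, and of 66 under the settings added later 51 stayed called and 15 did not. The 10 members called in IL-6 STAT3KO against IL-6 plasmid and the 9 in DDC against IL-6 plasmid were the same number with every library left out, DDC STAT3KO against DDC gave 0 each time, IL-6 plasmid against GFP plasmid (9 called) gave 7 each time, and the interaction (9) gave 7 to 10. With 1 library left out, the number of called members ranged from 2 to 3 for DDC against GFP plasmid (4 called with all libraries), 0 to 4 for IL-6 STAT3KO against GFP plasmid (3), 2 to 7 for DDC STAT3KO against GFP plasmid (4), 0 to 3 for DDC STAT3KO against IL-6 STAT3KO (2), 0 to 3 for macrophages (2) and 0 to 7 for the 5 immune cell groups (6). Where an arm kept 1 library, it is assumed to vary like the other groups. DDC STAT3KO against IL-6 STAT3KO gave 1 with library totals, with the replicate block and with only the compared groups. DDC against GFP plasmid gave 8 and the 5 immune cell groups gave 1 with only the compared groups, IL-6 STAT3KO against GFP plasmid gave 5 with DESeq2, and macrophages gave 5 with no filter on low counts. With IL-6 plasmid replicate 3 and DDC STAT3KO replicate 3 left out together the numbers were 7, 8 and 4 for DDC against GFP plasmid, DDC STAT3KO against GFP plasmid and DDC STAT3KO against IL-6 STAT3KO. Without the libraries labelled T cell the 5-group test called 0, and without these and DDC macrophage replicate 1 both immune comparisons called 0. The number of all genes called moved with these settings too, as listed below. The cause of these changes was not tested.

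Reversals were seen only in estimates that did not pass the test. With library totals, Gstm6 was 0.027 in DDC STAT3KO against GFP plasmid, and Gstm1 and Gstm4 were 0.196 and 0.0914 in DDC STAT3KO against IL-6 STAT3KO, where Gstm1 was 0.0113 with no filter and 0.21 without the 2 replicate 3 libraries named above. Without those 2, Gstm1 was 0.18 in DDC STAT3KO against DDC. Without the libraries labelled T cell and DDC macrophage replicate 1, Gsta2 was -1.50 and Gsta4 was -0.13 in macrophages. With Gm3776 and Gm10639 added, the class alpha sum was 0.0359 in DDC STAT3KO against IL-6 STAT3KO, and the mu sum in macrophages (4.94) was no longer called. With 1 library left out, DDC STAT3KO against DDC ranged from -0.22 to 0.63 for Gsta1, -0.22 to 0.47 for Gsta2, -0.24 to 0.28 for Gsta4, -0.27 to 0.18 for Gstm1, -0.16 to 1.11 for Gstm2, -0.68 to 0.51 for Gstm3, -0.0355 to 0.46 for Gstm6, -0.12 to 0.41 for Gstp1, -0.39 to 0.31 for the mu sum and -0.11 to 0.42 for the pi sum. DDC STAT3KO against IL-6 STAT3KO ranged from -0.11 to 0.63 for Gsta2, -0.37 to 0.55 for Gstm1, -0.35 to 0.36 for Gstm4, -0.31 to 0.12 for the alpha sum, -0.14 to 0.72 for the mu sum and -1.61 to -0.99 for the pi sum. IL-6 STAT3KO against GFP plasmid ranged from -0.0254 to 0.14 for Gsta3, -0.0403 to 0.55 for Gstm6 and 1.89 to 2.75 for the mu sum. The other class sums that moved ranged from -0.17 to 0.26 (alpha) and 2.41 to 2.80 (mu) in DDC STAT3KO against GFP plasmid, 2.30 to 2.995 (mu) in DDC against GFP plasmid, -1.39 to -0.84 (pi) in IL-6 plasmid against GFP plasmid and 1.63 to 2.25 (pi) in the interaction. In macrophages the ranges were -1.65 to 2.99 for Gsta2, -0.28 to 3.39 for Gsta4 and 2.73 to 5.62 for the mu sum, and over the 5 immune cell groups the adjusted p ranged from 0.00573 to 0.0888 for the alpha, 0.0023 to 0.0725 for the mu and 0.0131 to 0.0982 for the pi sum.

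Same-numbered hepatocyte libraries had correlations of their deviations from the group means between -0.159 and 0.318, and not every pair exceeded 0.1, so the numbers are taken as names only. With the replicate block, Gsta1 and Gstp1 lost their calls in IL-6 plasmid against GFP plasmid (7 called), Gstm1 in IL-6 STAT3KO against GFP plasmid (2 called) and Gsta1 in DDC STAT3KO against IL-6 STAT3KO (1 called); the estimates that reversed with the block were Gsta3 in IL-6 STAT3KO against GFP plasmid (-0.11) and Gstm1 in DDC STAT3KO against IL-6 STAT3KO (0.12). Class sums give no value for a single gene, so they stand as results of their own. With library totals the median log2 fold change of all genes moved from 0.05 to -0.18 in IL-6 plasmid against GFP plasmid, from 0.02 to 0.26 in DDC against GFP plasmid and from 0.00 to 0.46 in DDC against IL-6 plasmid. Over all alternatives, the number of all genes called ranged from 1702 to 4392 (3719 in the report's fit) in IL-6 plasmid against GFP plasmid, 2559 to 4422 (3781) in IL-6 STAT3KO against IL-6 plasmid, 90 to 1168 (448) in IL-6 STAT3KO against GFP plasmid, 632 to 4415 (2674) in DDC against GFP plasmid, 503 to 3858 (2278) in DDC STAT3KO against GFP plasmid, 614 to 3597 (1661) in DDC against IL-6 plasmid, 558 to 2275 (1410) in DDC STAT3KO against IL-6 STAT3KO, 0 to 19 (0) in DDC STAT3KO against DDC, 477 to 2151 (1187) for the interaction, 1 to 889 (7) in macrophages and 334 to 3656 (605) over the 5 immune cell groups. In the immune table the spread between the 2 libraries of a group limits what can pass.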
